A study of Rattus norvegicus with 6 samples.

Results

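The costimulatory and checkpoint ligands and receptors described here are encoded by 10 genes, Cd80, Cd86, Cd28, Ctla4, Icos, Icoslg, Cd274, Pdcd1, Cd40 and Cd40lg. They were taken by gene name from the deposited table of the lumbar spinal cord, so they are 10 of the 30957 genes listed there. Expression was compared between 3 libraries of rats with bone cancer pain (BCP) and 3 libraries of sham-operated rats. All were adult female Wistar rats, an outbred strain. BCP rats had received living Walker 256 cells, a rat mammary carcinoma line, in the marrow cavity of the left tibia, and sham-operated rats had received the same kind of cells after heat killing, so surgery and tumor cell material were common to both groups. On day 14 the cord of the inoculated side was taken without its meninges, and strand-specific libraries were made from total RNA depleted of ribosomal RNA. The cells were placed in the bone and not in the cord. The labels number the libraries 1 to 3 in each group without saying whether each came from its own animal, so the p-values measure the spread between these libraries.

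These proteins carry the second signal of T cell activation, which is read together with antigen on a major histocompatibility complex (MHC) molecule. CD80 and CD86 are the B7 ligands of antigen-presenting cells. On T cells they bind CD28, which activates, and CTLA4, which binds the same ligands more tightly and inhibits. ICOS is a relative of CD28 that appears on activated T cells and binds ICOSLG, whereas PD-1, encoded by Pdcd1, inhibits T cells when it meets its ligand PD-L1, encoded by Cd274. CD40 is a receptor of the tumor necrosis factor (TNF) receptor family on antigen-presenting cells, and its ligand CD40LG is carried by activated helper T cells. In the central nervous system, microglia and other macrophages can carry CD80, CD86, CD40 and PD-L1, and their levels rise on activated cells.

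The gene table held 11779485 to 15004290 counts per library, and edgeR estimated a biological coefficient of variation of 7.72% within groups. Normalized counts are given as CPM, which are counts divided by the TMM-scaled library total, and levels per length as the deposited FPKM. A gene was called higher or lower when edgeR's adjusted p-value was under 0.05 and its log2 fold change (log2FC, BCP against sham) was over 1 in size. Of 14908 genes tested, 946 (6.35%) were called higher and 16 (0.107%) were called lower. The median log2FC of all tested genes was -0.014. Libraries of each group differed from each other by more than counting noise, so none was a copy of another.

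Of the 10 genes, 9 had at least 1 count in the 6 libraries and 7 had enough counts to be tested. Among these 7, the 6 genes Cd80, Cd86, Ctla4, Icos, Icoslg and Cd40 were called higher in BCP against 6.35% of all tested genes, and none was called lower. Their log2FC ranged from 1.31 for Icos to 3.67 for Ctla4. Cd274 was also tested, and its log2FC of 1.10 did not pass the adjusted threshold. Cd28, Pdcd1 and Cd40lg had too few counts for the test. Ctla4 reached the level of the filter on low counts in no sham library, and Cd86 and Cd40 reached it in 2 of the 3 that the filter asks for, so these genes could be tested only through their BCP libraries. The count of 6 describes the genes tested. Every BCP library lay above every sham library for 8 of the 10 genes, which was the case for 17.4% of the 20645 genes with counts. The groups overlapped for Pdcd1 and Cd40lg.

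**Figure D1:**
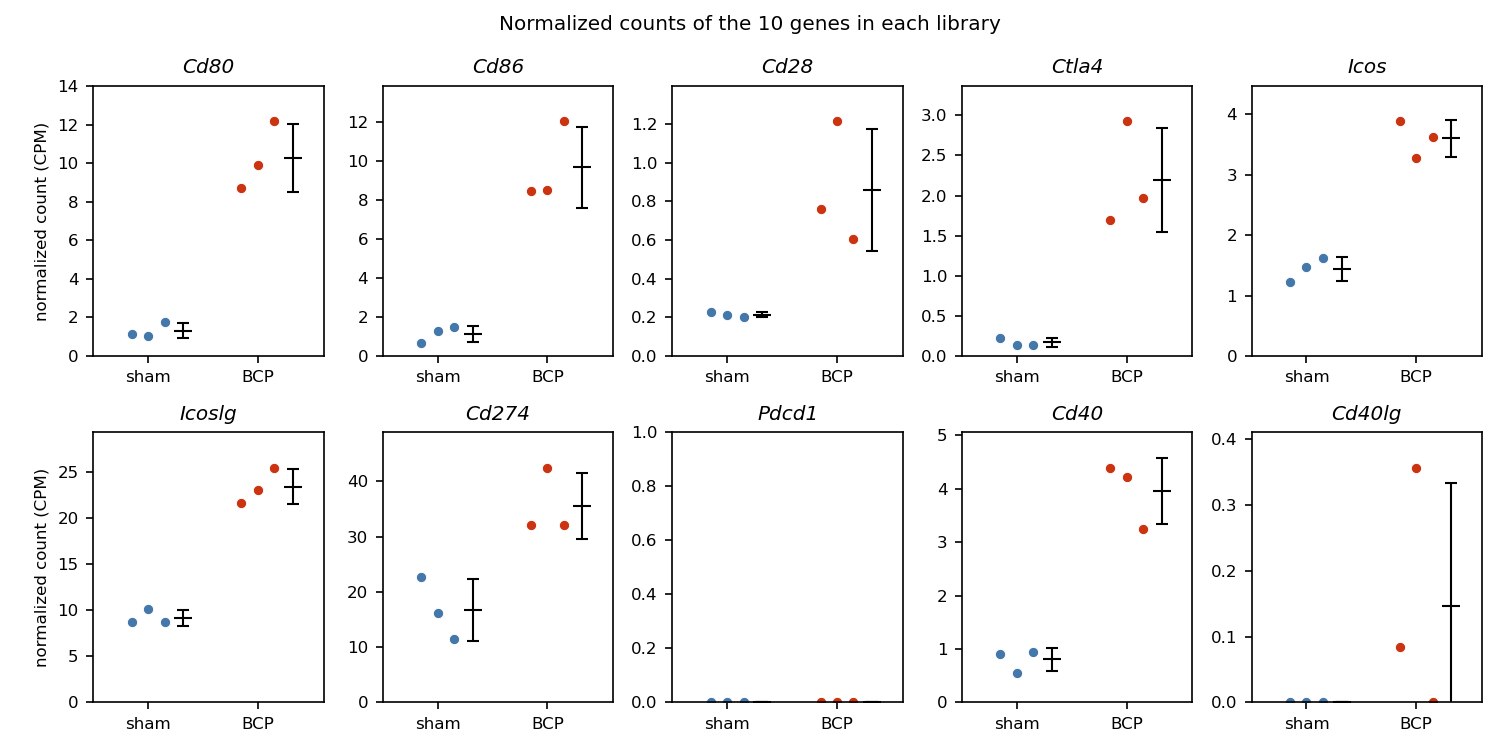
Normalized counts (CPM, linear axis from 0) of the 10 genes in the 3 sham libraries (blue) and the 3 BCP libraries (red), with 1 panel and 1 scale per gene. Points are libraries, and the black marks beside them give the mean and SD (n = 3), with the lower end for Cd40lg ending at the axis. The red points lie above the blue points in every panel but those of Pdcd1, at 0 in all 6 libraries, and Cd40lg, with counts in 2 BCP libraries.

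The B7 ligands Cd80 and Cd86 were low in the sham cord and rose about alike. Cd80 (ENSRNOG00000001527, chr11:64827635-64855353, Rnor_6.0) had 15, 15 and 26 counts in sham libraries 1 to 3 and 103, 139 and 161 counts in BCP libraries 1 to 3. Its normalized count was 1.32 ± 0.384 CPM in sham and 10.3 ± 1.77 CPM in BCP (SD, n = 3), a log2FC of 2.95 ± 0.23 (SE) with an adjusted p of 7.34e-09. The lowest BCP library, at 8.70 CPM, was far above the highest sham library, at 1.76 CPM. Cd86 (ENSRNOG00000038835, chr11:67082193-67118795) had 9, 18 and 22 counts in sham and 100, 119 and 159 counts in BCP. Its normalized count went from 1.14 ± 0.412 CPM to 9.66 ± 2.05 CPM (SD, n = 3), with a log2FC of 3.05 ± 0.26 (SE) and an adjusted p of 1.75e-08. For both genes BCP library 3 was the highest, and the groups were far apart. Both lie on chromosome 11, 2226.84 kb apart with 28 listed genes between them.

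The promoters of these genes are shown because both ligands rose together. They also held the only matches to the ISRE and NF-kB motifs in the 10 promoters searched, each motif in 1 promoter. They were thus chosen after the values and the matches were seen. The sequences are from RefSeq on GRCr8, a later build than that of the deposited positions, and run from 250 bases before to 50 bases after a transcript start. RefSeq promoters were matched by symbol for 8 of the 10 genes, with 10 starts in all, and Cd40 and Cd40lg had no entry. Capitals mark the motif matches. Cd80 has a pair of starts with overlapping windows on the minus strand, of which the window at chr11:75797207-75797506 is shown. Cd86 has 1 start, on the plus strand at chr11:77669031-77669330.
Cd80: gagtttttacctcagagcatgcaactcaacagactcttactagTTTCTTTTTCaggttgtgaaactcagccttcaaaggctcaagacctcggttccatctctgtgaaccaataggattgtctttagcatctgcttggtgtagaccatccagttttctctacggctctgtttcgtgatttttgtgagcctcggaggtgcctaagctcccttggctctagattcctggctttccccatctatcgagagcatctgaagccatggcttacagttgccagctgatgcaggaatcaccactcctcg
Cd86: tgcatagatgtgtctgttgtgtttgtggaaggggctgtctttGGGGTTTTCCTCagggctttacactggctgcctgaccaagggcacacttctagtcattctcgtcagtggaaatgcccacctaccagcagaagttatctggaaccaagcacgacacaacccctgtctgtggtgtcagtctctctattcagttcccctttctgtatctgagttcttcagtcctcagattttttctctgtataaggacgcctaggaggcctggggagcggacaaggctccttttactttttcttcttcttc
Matches to 4 motifs, searched on both strands, are given. The ISRE core GAAANNGAAA was in the Cd80 promoter shown from -207 to -198, counted from the start base as 0, on the opposite strand, and in 3.92% of all 33469 promoters of this length. The NF-kB motif was in the Cd86 promoter from -208 to -199 and in 7.51% of all promoters. There it overlapped a match to the PU.1 core GAGGAA from -202 to -197, and this core was also found for Icos, Icoslg and Pdcd1 and in 27.6% of all promoters. The AP-1 motif TGANTCA was in none of the 10 promoters and in 7.33% of all promoters. The matches describe these windows only.

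The receptors of the B7 ligands, Cd28 and Ctla4, both had fewer counts than the ligands. Cd28 (ENSRNOG00000010283, chr9:67546408-67571871) had 3 counts in each sham library and 9, 17 and 8 counts in BCP, or 0.213 ± 0.0135 and 0.860 ± 0.316 CPM (SD, n = 3). It was too low for the test, and the pooled counts of 9 and 34 gave a BCP to sham ratio of 4.09 (95% exact interval 1.92 to 9.69, counting error only). The lowest BCP library, with 0.605 CPM, was above the highest sham library, with 0.229 CPM. Without the filter on low counts its log2FC was 1.97 ± 0.58 (SE) with an adjusted p of 0.0130. Ctla4 (ENSRNOG00000054129, chr9:67699379-67706065), the inhibitory receptor, had 3, 2 and 2 counts in sham and 20, 41 and 26 counts in BCP. Its normalized count was 0.168 ± 0.0528 CPM in sham and 2.19 ± 0.649 CPM in BCP (SD, n = 3). Its log2FC was 3.67 ± 0.47 (SE) with an adjusted p of 5.38e-06. The pooled counts of 7 and 87 gave a ratio of 13.4 (95% exact interval 6.26 to 34.4), an interval that overlaps those of Cd86 (6.19 to 11.5) and Cd80 (5.88 to 10.5), so the order of these changes was not resolved. BCP library 2 was the highest for both receptors. The bulk cord cannot tell more cells of a type from more RNA per cell, for these and for all genes below.

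ICOS and its ligand rose to a smaller extent. Icos (ENSRNOG00000046196, chr9:67763897-67785580) had 16, 21 and 24 counts in sham and 46, 46 and 48 counts in BCP, or 1.43 ± 0.202 and 3.60 ± 0.302 CPM (SD, n = 3). The log2FC was 1.31 ± 0.26 (SE) with an adjusted p of 0.000653, and the 3 BCP libraries differed little from each other. Icoslg (ENSRNOG00000023109, chr20:11329992-11340296) had 114, 145 and 129 counts in sham and 257, 323 and 337 counts in BCP. It went from 9.17 ± 0.820 CPM to 23.4 ± 1.92 CPM (SD, n = 3), with a log2FC of 1.35 ± 0.12 (SE) and an adjusted p of 2.38e-08. Icos had the smallest and Icoslg the next smallest log2FC of the 6 genes called higher. Cd28, Ctla4 and Icos lie in this order within 239.173 kb of chromosome 9. Cd28 and Ctla4 are 127.507 kb apart, Ctla4 and Icos are 57.831 kb apart, and no other listed gene lies between neighbors.

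Cd274, which encodes PD-L1, was the most abundant of the 10 genes in both groups. It (ENSRNOG00000016112, chr1:247519939-247537943) had 297, 231 and 169 counts in sham and 380, 595 and 425 counts in BCP. In CPM these were 22.6, 16.1 and 11.4 in sham and 32.1, 42.5 and 32.2 in BCP, so the groups did not overlap, yet the sham libraries spread over a nearly 2-fold range. The means were 16.7 ± 5.63 and 35.6 ± 5.98 CPM (SD, n = 3), and the log2FC of 1.10 ± 0.29 (SE) had an adjusted p of 0.0515, just above the threshold. The call turned with the fit: without sham library 1 the log2FC was 1.37 with an adjusted p of 0.000735, whereas DESeq2 gave 1.10 with an adjusted p of 0.00274. Without sham library 3 the log2FC was 0.88, under the threshold on size. Pdcd1 (ENSRNOG00000049797, chr9:101307764-101319845), the gene of the receptor PD-1, was at 0 counts in all 6 libraries. A count of 0 allows up to 3 counts, or 0.203 to 0.253 CPM depending on the library, so no fold is given. Other causes of a row at 0 were not tested, and Col1a2 was also at 0 in all 6 libraries while Col1a1 had 250 to 995 counts.

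Cd40 rose, whereas its ligand was barely detected. Cd40 (ENSRNOG00000018488, chr3:161519743-161534704) had 12, 8 and 14 counts in sham and 52, 59 and 43 counts in BCP. Its normalized count went from 0.806 ± 0.215 to 3.95 ± 0.612 CPM (SD, n = 3), a log2FC of 2.28 ± 0.30 (SE) with an adjusted p of 7.75e-06. The lowest BCP library had 3.25 CPM and the highest sham library 0.945 CPM. Cd40lg (ENSRNOG00000000871, chrX:159703578-159716562) had no count in the sham libraries and 1, 5 and 0 counts in BCP libraries 1 to 3. BCP library 3 was thus at the sham level, the gene was not tested, and most of its counts were from 1 library.

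Per length, the order of the genes was led by Cd274 and Icoslg in both groups. In BCP the mean FPKM was 18.6 for Cd274, 8.57 for Icoslg and 4.29 for Cd86, and the libraries of these 3 genes did not overlap each other. Cd40 at 2.91 FPKM overlapped Cd80 at 2.15 FPKM. Further down, Icos at 1.23 FPKM overlapped Ctla4 at 1.04 FPKM, whose range in turn overlapped that of Cd28 at 0.683 FPKM, although Cd28 was below Ctla4 in each BCP library. Cd40lg had a mean of 0.0578 FPKM. In sham, Cd274 had 8.49 FPKM and Icoslg 3.26 FPKM, and the neighbors Cd40 (0.576), Cd86 (0.493) and Icos (0.477 FPKM) overlapped. Below them were Cd80 at 0.267, Cd28 at 0.165 and Ctla4 at 0.0769 FPKM, and Pdcd1 and Cd40lg were listed at 0. The mean of Cd86 was below that of Cd40 in sham, but in sham library 2 Cd86 was higher (0.544 against 0.401 FPKM). In each BCP library Cd86 was above Cd40. Ctla4 was below Cd28 in each sham library and above it in each BCP library. The mean level of Cd274 in BCP was above that of 77.7% of the genes with counts, that of Icoslg above 60.1% and that of Cd28 above 26.1%.

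**Figure D2:**
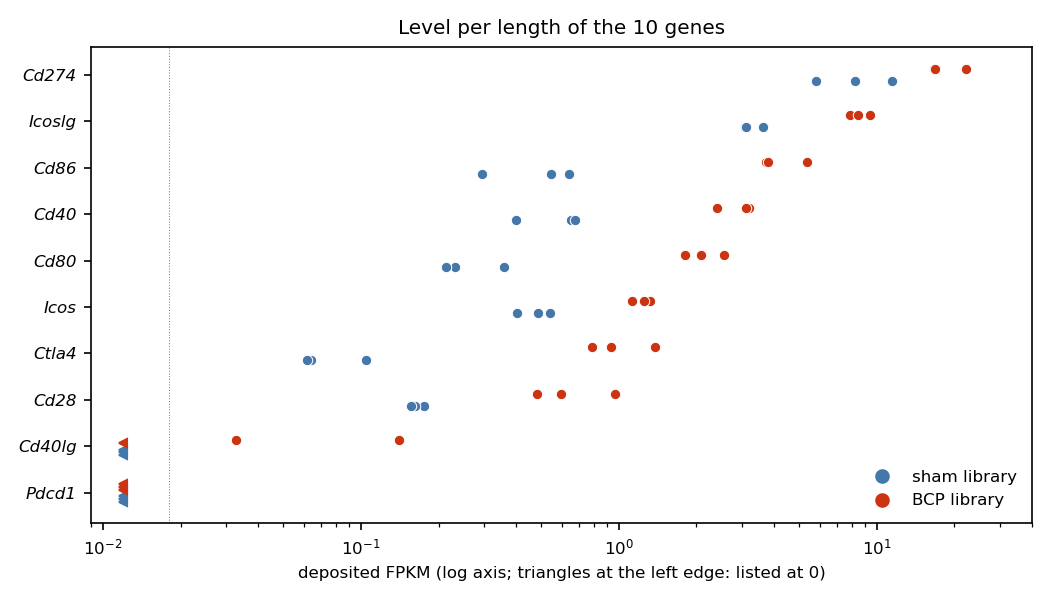
Deposited FPKM (log axis) of the 10 genes in each sham library (blue) and BCP library (red), ordered by the BCP mean, with triangles left of the dotted line for libraries listed at 0. Cd274 leads both groups with means of 8.49 and 18.6 FPKM, and red and blue points do not overlap for the 8 upper genes.

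The balance between a ligand and its partner was compared as the log2 ratio of the counts of a pair of genes in each library, with 0.5 added to each count. Library size and gene length cancel in the change of such a ratio. Of 10 pairs, 3 had enough counts for an exact permutation test, which with 3 against 3 libraries cannot give a p below 0.1. The ratio of Cd86 to Cd80 was -0.23 ± 0.48 in sham and -0.09 ± 0.11 in BCP (SD, n = 3), and this change of 0.13 was within the spread (exact permutation test, two-sided, p = 0.7, adjusted over 3 pairs 0.7). The ratio of Icoslg to Icos was 2.65 ± 0.22 in sham and 2.69 ± 0.19 in BCP (SD, n = 3), a change of 0.04 within the spread (exact permutation test, two-sided, p = 0.5, adjusted 0.7). The ratio of Cd86 to Csf1r, the receptor for colony-stimulating factor that marks microglia and macrophages, was -6.71 ± 0.76 in sham and -5.06 ± 0.12 in BCP (SD, n = 3). The groups did not overlap, and the change of 1.65, or 3.14-fold, had the smallest p the design allows (exact permutation test, two-sided, p = 0.1, adjusted 0.3). So Cd86 counts rose more than those of Csf1r, which had a log2FC of 1.44 ± 0.16 (SE, adjusted p = 0.00330), by a margin larger than the spread but not past the threshold.

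The other pairs had too few counts in a group and are given as values without a test. The FPKM ratio of Cd28 to Ctla4 was 1.68, 2.52 and 2.52 in sham and 0.757, 0.698 and 0.518 in BCP, so Cd28 was above Ctla4 in every sham library and below it in every BCP library. The sham values rest on 9 and 7 counts over the 3 libraries, against 34 and 87 in BCP. The FPKM ratio of Cd86 to Cd28 was 1.68 to 4.10 in sham and 3.91 to 11.1 in BCP, and that of Cd80 to Cd28 was 1.32 to 2.28 in sham and 2.15 to 5.30 in BCP. Against Cd3e, a chain of the T cell receptor complex, Cd28 had 9 counts to 1 in sham and 34 counts to 271 in BCP. Pdcd1 had 0 counts beside the same 1 and 271 counts of Cd3e, and beside 697 counts of Cd274 in sham and 1400 in BCP. Cd40 had 34 counts in sham and 154 in BCP, beside 0 and 6 counts of Cd40lg.

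The other genes of these pathways were followed in 5 lists with 75 names, of which 70 were in the table and 60 were tested. In these lists 28 genes were called higher and none lower, beside 6.35% and 0.107% of all tested genes, and the median log2FC was 0.90. Of the 60 genes, 15 reached the filter's level in fewer than 3 sham libraries, so the counts describe the genes tested. Of the other B7 and CD28 family members, 4 of 8 were found and 1 was tested. This was Cd276, a ligand with broad tissue expression, with a log2FC of 0.41 ± 0.10 (SE, adjusted p = 0.00278), under the threshold on size. Without that threshold 15.8% of all tested genes were higher and 12.1% were lower. Pdcd1lg2, the gene of the second ligand of PD-1, had 1 count in BCP library 2 and none elsewhere, and is named after its values were seen, like Cd276.

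Among the other TNF and TNF receptor costimulators, 3 of 8 tested genes were called higher, and the median log2FC was 0.90. Of these 8, 5 reached the filter's level in fewer than 3 sham libraries. Tnfrsf14, whose product is a partner of the inhibitory receptor BTLA, had 0, 4 and 6 counts in sham and 112, 165 and 149 in BCP, with a log2FC of 5.47 ± 0.35 (SE). Cd27, a costimulatory receptor of lymphocytes, was at 0 in all sham libraries and had 25, 43 and 44 counts in BCP. Against a floor of 3 counts per sham library it was at least 13.3-fold higher. Tnfsf8, the ligand of CD30, had a log2FC of 1.57 ± 0.38 (SE). The other checkpoint receptors and ligands had 7 of 15 tested genes called higher, with a median log2FC of 0.98. The leading genes by p were Lag3, an inhibitory receptor that binds MHC class II, with a log2FC of 3.94 ± 0.28 (SE), Cd48, with 1.06 ± 0.09, and Cd244, the receptor of CD48, with 2.57 ± 0.29.

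In the list of CD28 and PD-1 signaling, 11 of 22 tested genes were called higher, with a median log2FC of 0.78. Among the leading genes were Pik3cg, a phosphoinositide kinase of leukocytes (log2FC 1.91 ± 0.09, SE) and Ptpn6, the phosphatase SHP-1 of blood cells. Ptpn6 had 127, 143 and 118 counts in sham and 736, 1056 and 1098 counts in BCP. In the list of CD40 signaling, 7 of 14 tested genes were called higher, with a median log2FC of 1.02. Nfkb2, a subunit of the noncanonical NF-kB pathway, had a log2FC of 1.47 ± 0.12 (SE), Jak3, a kinase of cytokine receptors in leukocytes, had 1.43 ± 0.13, and Tnfaip3, an inhibitor of NF-kB, had 1.46 ± 0.13. In each of the last 3 lists 1 gene was lower at an adjusted p under 0.05 with a change smaller than 2-fold. These were Nectin2 (log2FC -0.37 ± 0.09, SE), Ptpn11 (-0.15 ± 0.04) and Traf3 (-0.18 ± 0.06), named after their values were seen.

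**Figure D3:**
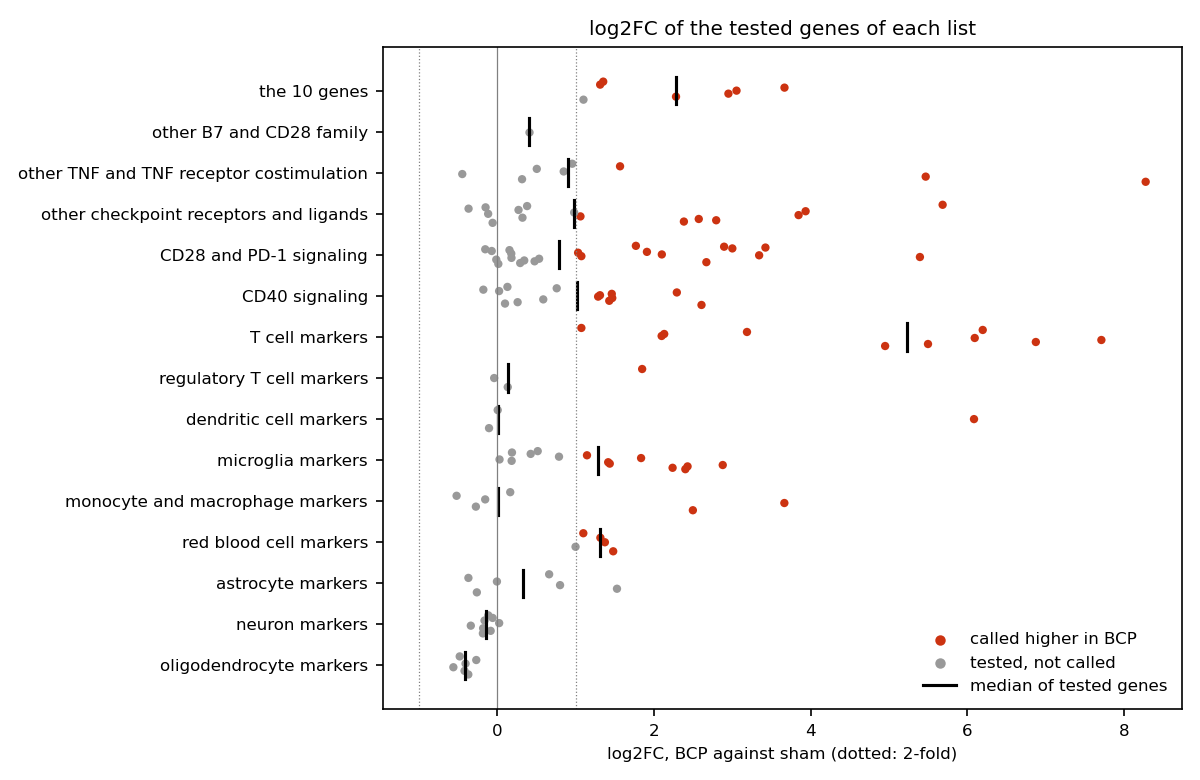
log2FC (BCP against sham) of the tested genes of each list, with red points for genes called higher, gray points for tested genes that were not called, and a black line for the median. The 7 tested members have a median of 2.28 and the 10 tested T cell markers 5.22, and 3 and 7 of these genes were below the filter's level in a sham library, so the medians describe the genes tested. Cd27 and Cd3d, at 0 in all sham libraries, are drawn at fitted values that depend on the prior count.

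In the pathway annotation of the deposited table all 10 genes carried the term cell adhesion molecules. Of the 109 tested genes of that term 44 (40.4%) were called higher, beside 6.35% of all tested genes, and 38 of 102 were without the members. The term intestinal immune network for IgA production, which holds B cell help and mucosal homing genes, included 7 of the 10 genes. There 20 of 24 tested genes were called higher, and 15 of 19 without the members, beside the same 6.35%. The T cell receptor signaling pathway included 5 of the 10 genes. There 23 of 90 tested genes were called higher, and 21 of 88 without the members, again beside 6.35%, and the median log2FC was 0.14. Terms named for diseases or graft rejection that included 5 or 6 of the 10 genes are not described here. In these, 48.3% to 80% of tested genes were called higher. The shares of all terms describe the genes tested.

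Cell type markers were followed beside the 10 genes, and their part in the changes above was not tested. All 10 tested T cell markers of 13 listed were called higher, but 7 of them reached the level of the filter on low counts in fewer than 3 sham libraries, so their place among the tested genes already rested on BCP libraries. Their summed level was 7.70 to 9.84 CPM in sham and 55.5 to 65.1 CPM in BCP. Cd3d, Cd5 and Cd8b were at 0 in every sham library. Lat is both in this list and in that of CD28 and PD-1 signaling. Cd3e had 0, 0 and 1 counts in sham and 56, 104 and 111 in BCP, a pooled ratio of 293 (95% exact interval 52.2 to 11623). Cd8a had 3 counts in sham and 231 in BCP, a pooled ratio of 83.3 (95% exact interval 28.2 to 407), and Cd4, which microglia and macrophages of the rat also carry, had a log2FC of 2.10 ± 0.14 (SE). The median of the tested genes was 5.22, or 4.07 with Cd3d at its bound against the floor.

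Of the microglia markers, 8 of 14 tested genes were called higher, with a median log2FC of 1.28 and a summed level of 417 to 524 CPM in sham and 1150 to 1393 CPM in BCP. Cx3cr1, the fractalkine receptor, had a log2FC of 1.42 ± 0.09 (SE), Aif1, a calcium-binding protein of microglia, had 2.40 ± 0.12, and C1qb, a complement subunit, had 2.43 ± 0.16. The dendritic cell list had 1 of 3 tested genes called higher, with a summed level of 45.6 to 50.6 CPM in sham and 77.4 to 83.5 CPM in BCP. This gene was Itgax, the integrin CD11c, which microglia and macrophages can also carry, with a log2FC of 6.09 ± 0.17 (SE). Without Itgax the list's summed level was 45.2 to 50.03 CPM in sham and 45.1 to 47.3 CPM in BCP. Siglech was at 0 in all libraries, and Xcr1, Batf3 and Ccr7 were at 0 in every sham library. In BCP, Xcr1 had 5, 7 and 5 counts, Batf3 had 8, 6 and 2, and Ccr7 had 0, 0 and 2. These were too low for the test, and without the filter on low counts 3 genes of the list were called higher. The sum without Itgax was mostly Flt3, at 40.6 CPM in sham and 37.7 CPM in BCP, so it says little about genes this low. Of the regulatory T cell list, whose cells carry much CTLA4 and ICOS, 1 of 3 tested genes was called higher. This was Il2ra, a subunit of the interleukin-2 receptor, with a log2FC of 1.85 ± 0.45 (SE). The list's summed level was 11.1 to 13.9 CPM in sham and 13.2 to 17.2 CPM in BCP. It was mostly Ikzf2, at 8.54 CPM in sham and 9.34 CPM in BCP, and Ikzf4, at 3.77 and 3.66 CPM. The sum thus says little about the lower genes of the list. Foxp3, the defining factor of these cells, had 5, 3 and 3 counts in sham and 4, 7 and 4 in BCP, with overlapping groups and too few counts for the test. Foxp3, Ikzf2 and Ikzf4 are named after their values were seen.

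None of the 8 B and plasma cell markers had enough counts for the test, with summed levels of 0.457 to 1.22 CPM in sham and 1.44 to 1.93 CPM in BCP. Ms4a1 and Tnfrsf17 were at 0 in every sham library, and in BCP they had 3, 3 and 2 counts and 1, 2 and 1 counts. Without the filter on low counts 1 gene of the list was called higher. Monocyte and macrophage markers had 2 of 6 tested genes called higher and went from 23.0 to 26.7 CPM in sham to 71.5 to 82.9 CPM in BCP. The called genes were Cd68, with a log2FC of 3.66 ± 0.15 (SE), and Adgre1, with 2.50 ± 0.11, both of which microglia also carry and which are named after their values were seen. Without them the summed level was 13.7 to 18.8 CPM in sham and 13.3 to 17.9 CPM in BCP. Ccr2 had no count in sham and 1 count in each BCP library. Red blood cell markers had 4 of 5 tested genes called higher, with a median log2FC of 1.32 and summed levels of 249 to 264 CPM in sham and 476 to 689 CPM in BCP. The platelet list had 1 tested gene, Itga2b, which was called higher with a log2FC of 3.35 ± 0.29 (SE) and is named after its values were seen. The list went from 1.26 to 2.13 CPM in sham to 6.76 to 8.85 CPM in BCP, and without Itga2b from 0.907 to 1.42 CPM to 1.18 to 1.999 CPM, with Ppbp, Gp9 and Gp5 at 0 in all libraries. The neuron, astrocyte, oligodendrocyte, endothelial, meninges and epithelial lists had no gene called higher or lower. Their median log2FC was -0.14 for neurons, 0.33 for astrocytes and -0.41 for oligodendrocytes. Without the threshold on size, all 6 oligodendrocyte, 3 neuron, 2 astrocyte and 2 meninges markers were lower, beside 12.1% of all tested genes. Only 1 astrocyte marker was higher, beside 15.8%. The 6 oligodendrocyte markers had every BCP library below every sham library. Aqp4 of the astrocyte list, named after its values were seen, had 28568 counts in BCP library 1 and 5037 and 4775 in libraries 2 and 3. All 8 neuron, 6 astrocyte and 6 oligodendrocyte markers of the labeled tissue were tested. Of the 5 epithelial markers only 1 had enough counts for the test, so the lack of a call there says little.

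Long noncoding RNAs (lncRNAs) within 10 kb of the 10 genes were examined, since the study used this distance for targets in cis. There were 5 such transcripts, near 3 of the genes, and 4 were tested. Both lncRNAs inside the span of Icoslg were called higher, beside 1.14% of the 12157 lncRNAs tested, and none was called lower, beside 0.074%. NONRATT017656.2 (chr20:11330000-11330759) had 4, 1 and 1 counts in sham and 22, 31 and 39 counts in BCP, with a log2FC of 3.99 ± 0.52 (SE) and an adjusted p of 0.00984. NONRATT017657.2 (chr20:11331290-11334129) had 6, 6 and 14 counts in sham and 46, 48 and 43 counts in BCP, with a log2FC of 2.54 ± 0.34 (SE) and an adjusted p of 0.0114. Their BCP libraries were above their sham libraries, as for Icoslg. Both transcripts reached the level of the filter on low counts in fewer than 3 sham libraries. They could thus be tested only through their BCP libraries, and the calls describe the lncRNAs tested. Neither call held in each fit that left out 1 library: without sham library 2 the adjusted p was 0.0582 and 0.0577, and without BCP library 3 it was 0.0523 and 0.0521.

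At Cd274, NONRATT001659.2 (chr1:247536997-247539654) overlaps the end of the gene. It had 271, 240 and 68 counts in sham and 175, 259 and 432 in BCP, with overlapping groups, a log2FC of 0.68 ± 0.68 (SE) and an adjusted p of 0.757. In this transcript, as in Cd274, sham library 1 was the highest and sham library 3 the lowest sham library. The BCP order differed, with library 3 the highest for the transcript (201 CPM) and library 2 for Cd274 (42.5 CPM). NONRATT003698.2 (chr1:247502379-247510760), 9179 bases from Cd274, had 18, 18 and 28 counts in sham and 18, 18 and 16 in BCP, with a log2FC of -0.14 ± 0.29 (SE) and an adjusted p of 0.902. NONRATT029445.2 (chr9:67478512-67564545) overlaps Cd28 and had 0, 0 and 1 counts in sham and 2, 3 and 2 in BCP, too few for the test. The files give no strand for these transcripts and the use of strand in counting is not given in the sources used here, so reads of a gene and of a lncRNA that overlaps it cannot be told apart. Within 100 kb there were 20 lncRNAs near 6 of the genes, of which 12 were tested and the same 2 were called higher.

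**Figure D4:**
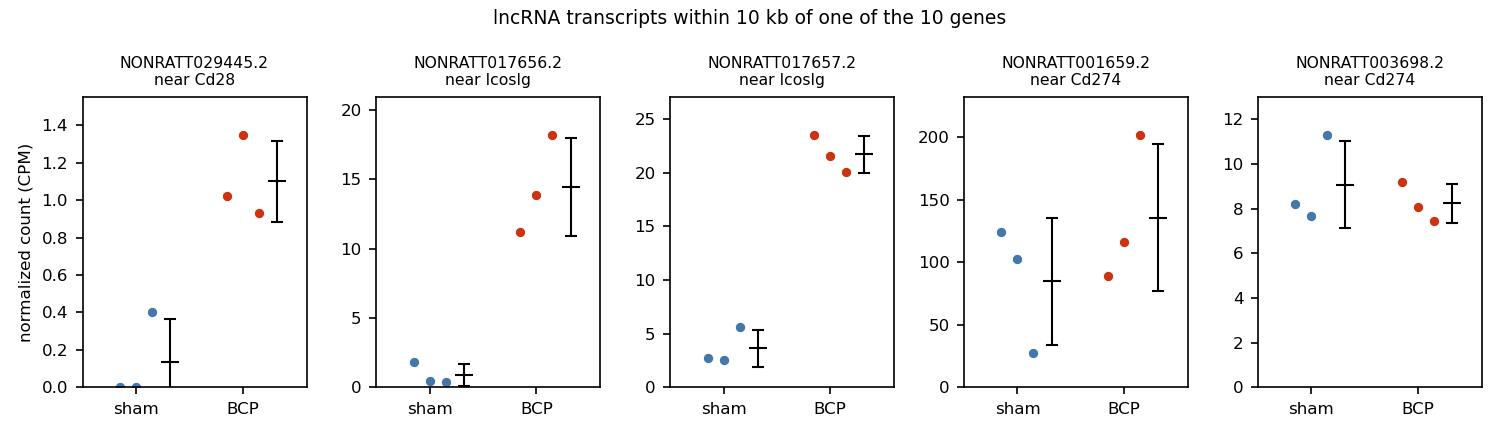
Normalized counts (CPM of lncRNA counts, linear axis from 0) of the 5 lncRNAs within 10 kb of one of the genes, in sham (blue) and BCP (red) libraries, with the mean and SD (n = 3) in black. The 2 lncRNAs inside Icoslg and the transcript across Cd28 have all red points above the blue points, and both lncRNAs at Cd274 overlap.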

How the data were processed

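RNA of 3 BCP and 3 sham libraries was analysed from the authors' tables of genes and lncRNA transcripts. Per the paper, the authors filtered reads (Seqtk), aligned these with HISAT2 2.0.4 to the rat build Rnor_6.0 and calculated FPKM with StringTie 1.3.0. They deposited unnormalized counts and FPKM values of each library. The counter and its use of strand are not given in the sources used here.

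Counts were tested with edgeR 4.0.16 (R 4.3.3) on all genes and, separately, all lncRNAs, with filterByExpr, TMM, a robust quasi-likelihood fit on condition and Benjamini-Hochberg adjustment. SE is the log2FC divided by the square root of F. Ratios were tested by exact permutation (scipy 1.17.1). Intervals are 95% exact and, like floors of 3 counts, cover counting error only. The code was tested on simulated counts.

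The members, lists and tests were chosen with earlier results of these data known. All members, lncRNAs within 10 kb, genes of the ratio pairs and, in the pathway, T cell, regulatory T cell, dendritic cell and microglia lists, up to 3 called genes with the smallest p-values were named. Some items that these rules select are not reported here. Alternatives were DESeq2 1.42.0, edgeR's likelihood ratio test, other scalings, filters and thresholds, each library left out, and the replicate number as a block. GRCr8 positions were used only for promoters, and other samples of the study were not analysed here.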

Additional observations from a re-analysis of the deposited data

How the results depend on the processing

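With at least 10 counts required in every library, 3 of the 10 genes were called higher, since Cd86, Ctla4 and Cd40 have sham libraries under that number, and 16 genes of the 5 pathway lists and 0 lncRNAs within 10 kb were called higher. The 10 genes gave 7 calls under DESeq2, the likelihood ratio test, upper-quartile factors, library size only, no filter and the replicate block, and 6 to 8 without 1 library, with 8 without sham library 1. Cd80, Cd86, Ctla4, Icos, Icoslg and Cd40 were each called in all 6 fits without 1 library, and Cd28 in the 4 such fits that tested it. Cd28 reached the filter's level in no sham library, so these 4 fits tested it only through its BCP libraries. Cd274 passed in 6 alternatives, with adjusted p from 0.000735 to 0.0487, and missed the threshold on p or on size in the other 7, with log2FC from 0.88 to 1.18.

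With the replicate block, the lncRNAs within 10 kb gave 0 calls, and without 1 library they gave 0 to 2, the 0 without sham library 2 and without BCP library 3. Under the replicate block the adjusted p was 0.0697 for NONRATT017656.2 and 0.0687 for NONRATT017657.2, and all lncRNAs called higher fell from 139 to 43. The cause was not tested. Libraries with the same number did not deviate together (r from -0.105 to 0.0439 for genes), so the numbers were not taken to pair the samples. Without the filter on low counts, 5 other TNF and TNF receptor genes were called instead of 3.

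The tested pairs whose groups did not overlap numbered 1, and 1 to 2 without 1 library. Without sham library 2 the ratio of Cd86 to Cd80 also did not overlap, with a change of 0.38, and without BCP library 1 that of Icoslg to Icos. No result reversed its direction among those that passed the threshold. Pdcd1, Cd40lg and Cd28 had the fewest counts, with 0 to 17 per library.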

Other observations

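In the sham libraries Icos had 61 counts in all, whereas Cd3d had 0, Cd3e 1 and Cd3g 1, Ctla4 7 and Cd28 9. In BCP, Icos had 140 counts beside 42 of Cd3d, 271 of Cd3e and 88 of Cd3g. These genes were picked after their values were seen, and no source of the sham Icos counts was tested.

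Havcr2, which encodes the inhibitory receptor TIM-3 of myeloid cells and T cells, had 148, 149 and 105 counts in sham and 177, 250 and 313 in BCP. Its log2FC of 0.98 ± 0.21 (SE) had an adjusted p of 0.00633 and was just under the threshold on size. Btla, the receptor for Tnfrsf14, had 1, 1 and 2 counts in sham and 8, 6 and 5 in BCP, too few for the test. Tnfsf18 and Tnfrsf18, a ligand and its receptor, had 21 and 25 counts in BCP and 0 and 2 counts in sham, and were not tested either. These 4 genes were chosen after their values were seen.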
